A study of Mus musculus with 12 samples.

Results

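Trem2, Tyrobp, Hcst, Syk, Plcg2, Inpp5d and Cd33 encode a receptor of microglia, the adaptors that carry its signal into the cell, and the enzymes and inhibitory proteins that pass the signal on or hold it back. The genes were picked out by Ensembl identifier, with GENCODE M21 names, and are 7 of the 33906 genes measured. All 7 were among the 18119 genes that had enough reads to be tested, Hcst only through its libraries from diseased mice.

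The levels were read from poly(A) RNA sequencing of the lumbar spinal cord of 12 mice, 3 mice to a group and 1 library to a mouse. Group H (H1, H2 and H4) held healthy wild-type mice. The mice of the other 3 groups carried a model of amyotrophic lateral sclerosis (ALS), a disease in which motor neurons die, and the sources used here do not give its strain, the allele behind it or the age and sex of the mice. Group P (P66, P67 and P74) was given phosphate-buffered saline, group C (C79, C84 and C85) manganese-doped carbon dots, which are nanoparticles with an activity like that of superoxide dismutase, and group E (E75, E77 and E90) is taken to be the edaravone group. That reading of E is by elimination, because the series text describes edaravone, a radical scavenger used in ALS, under a letter that none of the libraries carries. The sources used here also leave out doses and lengths of treatment. Values of a group are given in the order of its mouse numbers as listed above. There was no group of healthy mice given either treatment, so the model and the treatments can be compared only along P against H, and C or E against P or H.

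Trem2 is a surface receptor of microglia and other tissue macrophages that binds lipids, lipoproteins and debris of dying cells. It has no signalling tail of its own and pairs with Tyrobp (also called DAP12), whose cytoplasmic motif recruits the kinase Syk once Src family kinases have phosphorylated it, and Syk in turn activates the phospholipase Plcg2. Hcst (DAP10) is a smaller adaptor, encoded beside Tyrobp, that couples receptors to phosphoinositide 3-kinase, and Inpp5d (SHIP1) removes a phosphate from the lipid which that kinase makes. Cd33 is known in human as an inhibitory receptor for sialic acids, and the mouse protein differs from it in its signalling part. In human, loss of TREM2 or TYROBP causes Nasu-Hakola disease, and variants at TREM2, PLCG2, INPP5D and CD33 are associated with the risk of Alzheimer's disease.

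The Trem2 gene lies on chromosome 17 from 48346401 to 48354147 (GRCm38, plus strand). Tyrobp (chromosome 7, 30413760 to 30417585, plus strand) and Hcst (30417712 to 30419854, minus strand) face each other with their 3′ ends, 126 bases apart and with no shared exon bases. Cd33 lies elsewhere on chromosome 7 (43524216 to 43544428, minus strand), Syk on chromosome 13 (52583173 to 52648792, plus strand), Plcg2 on chromosome 8 (117498291 to 117635142, plus strand) and Inpp5d on chromosome 1 (87620312 to 87720507, plus strand). Of the 7 genes, Plcg2 alone has another annotated gene inside it, Gm27361 on the minus strand, and the 2 share no exon bases.

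Since the 7 genes rose together, the 250 bases before the transcription start were searched for the letters GAGGAA, the core of the PU box that the myeloid factor Spi1 (PU.1) is known to bind, and for the related letters AGGAAGT, which were chosen after the windows had been looked at. Both strands were read, and the promoter table (RefSeq, GRCm38.p6) held windows for 6 of the 7 genes, all except Tyrobp. The window of Trem2 is shown because Trem2 is the receptor of the pathway, and those of Inpp5d and Hcst because they hold AGGAAGT. Capitals mark the matches, on the gene's strand for Inpp5d and Hcst and, for Trem2, as the reverse complement TTCCTC.
Trem2, chr17:48346151-48346400, plus strand: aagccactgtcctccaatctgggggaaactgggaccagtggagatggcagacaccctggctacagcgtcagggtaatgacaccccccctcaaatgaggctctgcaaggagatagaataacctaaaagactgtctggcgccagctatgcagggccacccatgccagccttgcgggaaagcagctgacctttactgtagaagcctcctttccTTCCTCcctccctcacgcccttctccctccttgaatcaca
Inpp5d, chr1:87620062-87620311, plus strand: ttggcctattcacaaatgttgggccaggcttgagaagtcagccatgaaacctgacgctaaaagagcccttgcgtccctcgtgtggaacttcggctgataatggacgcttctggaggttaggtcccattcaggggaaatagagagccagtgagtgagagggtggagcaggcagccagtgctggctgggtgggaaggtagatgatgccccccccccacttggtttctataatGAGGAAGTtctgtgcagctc
Hcst, chr7:30419855-30420104, minus strand: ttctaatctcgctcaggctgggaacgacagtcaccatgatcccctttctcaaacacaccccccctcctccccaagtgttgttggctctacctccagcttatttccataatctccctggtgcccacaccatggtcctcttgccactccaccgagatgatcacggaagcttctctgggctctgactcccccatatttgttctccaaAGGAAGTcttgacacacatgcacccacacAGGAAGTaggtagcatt
In Trem2 the match begins 40 bases before the start. In Inpp5d the letters GAGGAA begin 20 bases and AGGAAGT 19 bases before it, so that they overlap. In Hcst the letters AGGAAGT occur at 46 and at 17 bases before the start. GAGGAA was also found in Cd33, 226 bases before the start, and in the second of the Syk windows, 9 bases before it. These windows of Cd33 and Syk lie inside the gene spans given above, so the start meant there is an internal one. In all, GAGGAA was in 4 of the 7 windows of these genes and in 23.3% of 32851 windows of the same length in the table, and AGGAAGT was in 2 of 7 and in 7.69%. A match is only a run of letters, and no binding was measured here.

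Reads recovered from the deposited values summed to 16.8 to 19.8 M per library. The shared myeloid genes, 14 genes that microglia and macrophages both express, had a summed level of 193.9 to 262.7 FPKM (a level per kilobase of exon and per 1 M mapped reads) in H, 723.7 to 1591 in P, 891.8 to 1146 in C and 691.0 to 1118 in E. In P against H, where 12.2% of all 18119 tested genes passed as higher and 3.26% as lower, 14 of 14 of these rose, as did 10 of 12 microglia markers and 6 of 8 astrocyte markers (summed level 1237 to 1331 FPKM in H and 2166 to 3303 in P). Of the markers of border and blood macrophages 1 of 11 tested rose, a share near that of all genes, and of those of T and NK cells 1 of 5. Only 4 of the 11 macrophage markers reached the 10 reads asked for by the filter in every H library, and 0 of those 4 rose. Of the 5 T and NK markers 0 reached it in every H library. The macrophage markers summed to 2.41 to 6.28 FPKM in H and 4.06 to 9.28 in P. The markers of T and NK cells summed to 0.751 to 1.92 FPKM in H, where Gzmb, Prf1, Ncr1 and Klrb1c were listed at 0, and to 1.72 to 3.35 in P. Of the markers of motor neurons 4 of 8 fell, and of those of neurons in general 7 of 8, with a median log2 difference of -0.65. Several libraries stood apart in tissue makeup. Skeletal muscle genes summed to 2251 FPKM in H1, 191.7 in H2 and 159.7 in P74 and to 2.303 to 42.4 in the other 9 libraries, erythroid genes were highest in H4 (2610) and H1 (1281), and Hox genes of the caudal cord summed to 3.44 in H4 and 10.03 in C84 against 23.8 to 94.5 elsewhere. Schwann cell markers summed to 642.8 to 1139.7 FPKM in the 3 E libraries and to 327.0 to 477.1 in the other 9. The part of these differences in the results was not tested. The differences between groups, the levels relative to myeloid genes and the counts of called genes, pathway lists included, were also computed without each library in turn.

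In saline-treated ALS model mice all 7 genes were higher than in healthy mice, and for each of them every P library lay above every H library. The rise was steepest for the receptor and its main adaptor, with mean levels 6.97 times as high for Trem2 and 7.76 times as high for Tyrobp. The kinase, the phospholipase and the lipid phosphatase were at 3.17, 2.90 and 3.29 times their healthy level, for Syk, Plcg2 and Inpp5d in that order, Cd33 was at 4.06 times and Hcst at 4.54 times. Across all tested genes, 12.2% passed as higher in this comparison and 15.5% in either direction, and 26.4% had every P library above every H library. Under median-ratio scaling the split of calls over all genes moved from 2216 higher and 591 lower to 1407 and 1227, and the 7 genes still passed as higher. In bulk tissue, more cells of a type and more RNA per cell cannot be told apart.

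**Figure D1:**
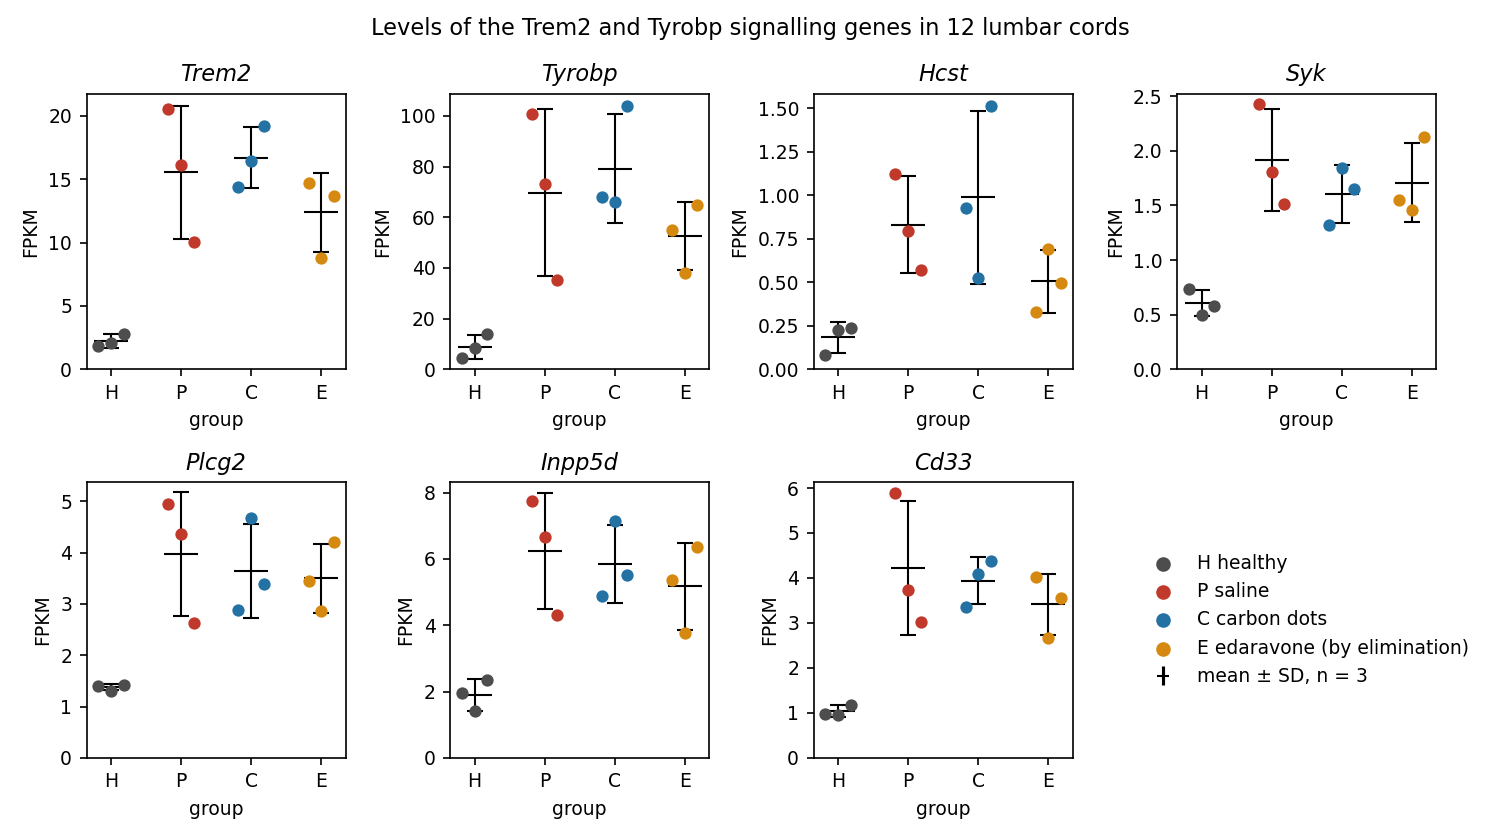
FPKM of the 7 genes (vertical axes, each from 0) in the 12 libraries by group (horizontal axes), with 1 point for each mouse and a bar for the mean ± SD of 3 mice. In every panel the 3 H points lie below the points of all other groups. The P points overlap with those of C and of E, and for Tyrobp alone every C point lies above every E point.

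The receptor Trem2 had 1.81, 2.07 and 2.82 FPKM in the H mice and 20.5, 16.1 and 10.1 in the P mice. The highest healthy mouse was thus well under the lowest saline-treated one, and P66 and P74 differed by more than the whole healthy range. These levels rested on 150 to 241 recovered reads per library in H and 847 to 1751 in P. Mean log2(FPKM + 1) was 2.32 ± 0.24 (SE, n = 3 mice per group) higher in P, and the limma test gave an adjusted p of 0.000302.

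The adaptor Tyrobp had 4.56, 8.42 and 13.96 FPKM in the H mice and 101, 73.3 and 35.1 in the P mice. Among healthy mice H1 was lowest and H4 highest, P74 was again lowest of its group, and the groups did not overlap. The log2 difference was 2.81 ± 0.41 (limma, adjusted p = 0.0021). The genes with less than 1 kb of exon, Tyrobp and Hcst among them, sat 0.14 below their own mean over libraries in H1 (median of 1247 genes, log2 scale) and 0.09 above it in H4. With that length trend removed, the Tyrobp difference was 2.84 (limma, adjusted p = 0.00135).

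Hcst, the other adaptor, was close to the limit of detection. It was counted with 1, 3 and 3 reads in the H mice (0.0825, 0.227 and 0.2403 FPKM) and with 14, 10 and 7 reads in the P mice (1.12, 0.798 and 0.570 FPKM). No library of H or E reached the 10 reads asked for by the filter, so the gene entered the test through its P and C libraries and a difference from H was part of what let it in. Pooled over mice and scaled to the reads of each group, the ratio of P to H was 4.50, with an exact 95% interval of 1.94 to 12.1 that covers counting error only. On the log2 scale the difference was 0.62 ± 0.17 (limma, adjusted p = 0.0313), a value that the pseudocount of 1 compresses for so low a gene. The call was lost without a filter on low genes (adjusted p = 0.0826) and without H1 (0.0829), H2 (0.0795), P66 (0.135) or P67 (0.0802). The strand setting of the counting is unknown, and the Hcst reads amounted to 0.645 to 2.91% of the Tyrobp reads in the 12 libraries, so reads running past the end of Tyrobp cannot be told apart from Hcst transcripts.

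The kinase Syk had 0.732, 0.501 and 0.581 FPKM in H and 2.43, 1.81 and 1.51 in P. Healthy levels were under 1 FPKM throughout and no P mouse was below 1.51. The log2 difference was 0.85 ± 0.14 (limma, adjusted p = 0.00322).

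Plcg2, which cleaves a membrane lipid to release calcium-mobilising and kinase-activating messengers, had 1.40, 1.31 and 1.41 FPKM in H and 4.95, 4.36 and 2.63 in P. The 3 healthy mice were nearly alike, with an SD of 0.0577 FPKM, whereas the SD in P was 1.21. The log2 difference of 1.04 ± 0.19 passed in limma (adjusted p = 0.00531).

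The lipid phosphatase gene Inpp5d had 1.94, 1.40 and 2.34 FPKM in H and 7.73, 6.66 and 4.30 in P. Cd33, whose inhibitory role is known from human, had 0.974, 0.955 and 1.18 FPKM in H and 5.89, 3.72 and 3.03 in P. Neither gene overlapped between the groups, and both rose, by 1.30 ± 0.21 for Inpp5d (limma, adjusted p = 0.00322) and 1.32 ± 0.18 for Cd33 (adjusted p = 0.00134). P66 was the highest and P74 the lowest P mouse for each of the 7 genes. The mean log2 level of the shared myeloid genes had the same order, at 5.56, 5.13 and 4.49 in P66, P67 and P74. So did the summed astrocyte (3303, 3014 and 2166 FPKM), microglia (936.9, 813 and 689.9) and oligodendrocyte markers (4415, 4172 and 4157). The summed caudal Hox genes had the opposite order, at 23.8, 59.1 and 81.8 FPKM. The markers of neurons (815.7, 1068 and 1377) and motor neurons (36.4, 56.2 and 73.6) and the skeletal muscle genes shared that opposite order. The erythroid, Schwann cell, macrophage, neutrophil, mast cell, T and NK cell and B cell markers had neither order, each being highest in P67. The part of these markers in the spread was not tested.

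**Figure D2:**
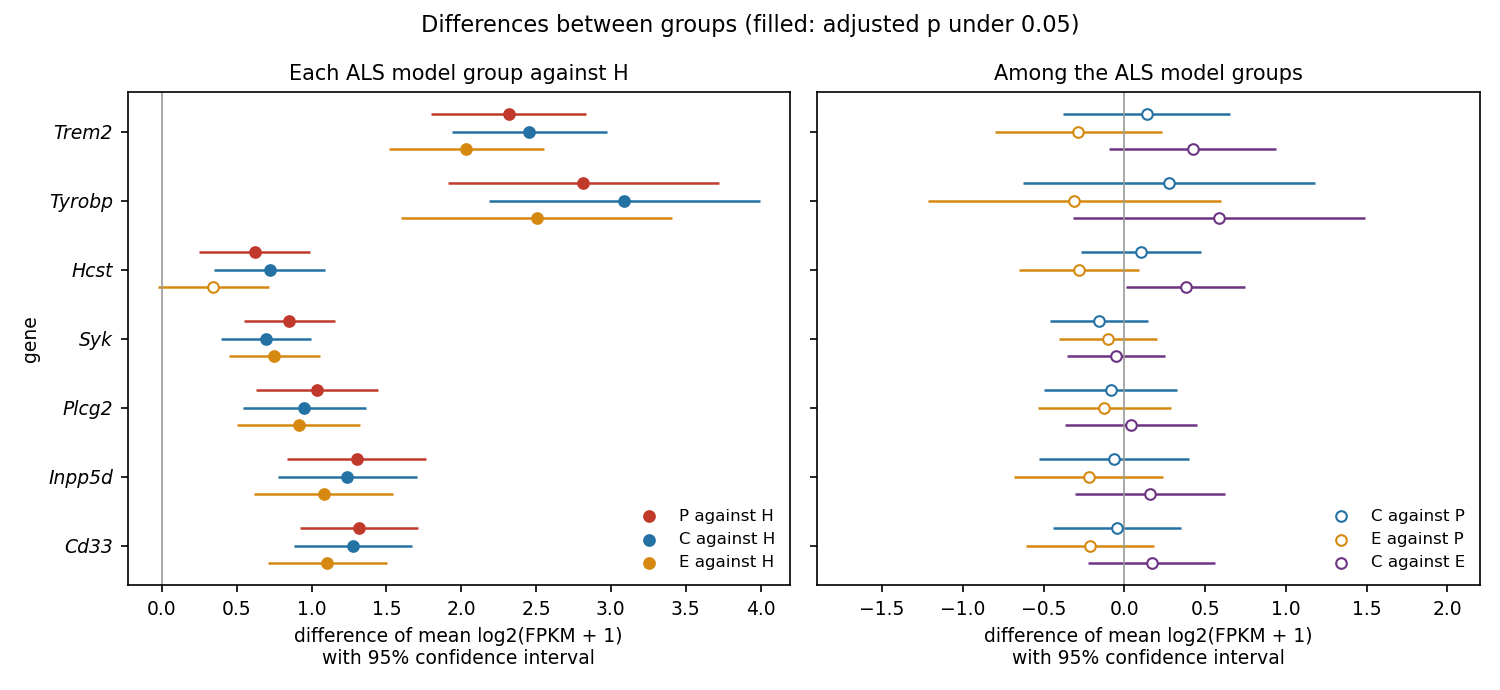
Differences of mean log2(FPKM + 1) between groups (horizontal axes) with 95% confidence intervals for the 7 genes, for each ALS model group against H on the left and among the ALS model groups on the right, with filled points where the adjusted p passed. All points on the left lie above 0 and only Hcst in E against H is open, while every point on the right is open.

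Neither treatment was accompanied by a detectable change of any of these genes relative to saline. In C against P, 0 of 7 passed (0.00552% of all tested genes did, which is 1 gene), and in E against P 0 of 7 passed, as did 0% of all genes in limma, although 1802 and 889 genes had an unadjusted p under 0.05 in C against P and E against P. None of the 7 had an unadjusted p under 0.05 in either comparison. Both comparisons share the P libraries and so are not independent of each other.

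Trem2 had 14.4, 16.5 and 19.2 FPKM in C79, C84 and C85 and 14.7, 8.81 and 13.7 in E75, E77 and E90. The C mice lay within the range of the P mice, and E77 lay below it. C minus P was 0.14 on the log2 scale with a 95% confidence interval of -0.38 to 0.66, and E minus P was -0.28 (-0.80 to 0.23). Because P66 and P74 were far apart, the sign of the first value hung on 1 mouse, at -0.13 without P74.

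Tyrobp had 67.8, 66.03 and 104 FPKM in C79, C84 and C85 and 54.9, 38.1 and 64.7 in E75, E77 and E90. Both groups overlapped with P. The intervals were wide for this gene, from -0.63 to 1.18 around 0.28 for C minus P and from -1.21 to 0.60 around -0.31 for E minus P. Every C mouse was above every E mouse, by little in the closest pair (C84 and E90), a pattern seen in 6.61% of all genes, and the difference of C and E did not pass (limma, 0.58, adjusted p = 0.634).

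Hcst was counted with 12, 7 and 17 reads in C79, C84 and C85 and with 4, 9 and 6 in E75, E77 and E90. C85 was thus the highest and E75 the lowest of the 9 ALS model libraries. The log2 differences from P were 0.10 (-0.27 to 0.47) for C and -0.28 (-0.65 to 0.09) for E. In C against E, where 0.171% of all tested genes passed in either direction and 0 of these 7 did, Hcst had the smallest p of the 7 (0.0461 unadjusted), and its adjusted p was 0.445. C79 and C85 were also the libraries in which genes with short exons ran high, with medians of 0.16 and 0.17 above their own mean, and with that trend removed the Hcst difference fell from 0.38 to 0.23.

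Within C, Trem2, Tyrobp, Hcst and Cd33 were highest in C85, and the other 3 genes in C84. Syk had 1.32, 1.84 and 1.65 FPKM in C79, C84 and C85, Plcg2 2.89, 4.67 and 3.40, and Inpp5d 4.87, 7.15 and 5.50, while Cd33 had 3.35, 4.10 and 4.38. In E75, E77 and E90, Syk had 1.55, 1.46 and 2.13 FPKM, Plcg2 3.45, 2.86 and 4.20, Inpp5d 5.36, 3.77 and 6.37 and Cd33 4.01, 2.67 and 3.57. E77 was thus the lowest E mouse for each of these 4 genes, and the ranges of P, C and E overlapped for all of them. The log2 differences from P lay between -0.16 and -0.04 for C and between -0.22 and -0.10 for E. Inpp5d had the widest intervals of these 4 genes, -0.69 to 0.24 in E minus P and -0.53 to 0.40 in C minus P.

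Against healthy mice the genes were raised in both treated groups as well. In C against H 7 of 7 passed as higher, where 7.25% of all tested genes did (8.31% in either direction) and 22.7% had every C library above every H library. In E against H 6 of 7 passed as higher, all except Hcst, where 11% of all tested genes did (13.2% in either direction) and 24.9% had every E library above every H library. Under median-ratio scaling the splits over all genes moved from 1313 higher and 192 lower to 936 and 450 in C against H, and from 2002 and 390 to 1297 and 904 in E against H, with the same counts of 7 and 6. Trem2 was 7.47 times as high in C as in H and 5.55 times in E, and Tyrobp 8.82 and 5.85 times. The smallest ratios were those of Syk (2.65) and Plcg2 (2.66) in C, and of Plcg2 (2.55) and Inpp5d (2.73) in E. In E, Hcst was counted with 19 reads against 7 in H, a ratio of 2.75 (exact 95% interval 1.11 to 7.75), and its log2 difference of 0.34 did not pass (limma, adjusted p = 0.201). Markers of other cells moved as well in E against H, where 2.15% of all tested genes passed as lower. Of the Schwann cell markers 6 of 8 rose (1 of 8 in C against H and 2 of 8 in P against H), and of the markers of border and blood macrophages 4 of 11 rose, with sums of 7.48 to 16.1 FPKM in E beside 2.41 to 6.28 in H. Of the oligodendrocyte markers 3 of 8 fell, with sums of 3000.1 to 3949 FPKM in E and 4597 to 5946 in H. The part of these cells in the E values was not tested. In C the Hcst call (adjusted p = 0.0246) was lost without a filter on low genes (0.0709) and without H1, H2, C79 or C85 (0.0583 to 0.0854), and the Syk call (adjusted p = 0.0114) was lost without H2 (0.0558). All 3 comparisons share the H libraries.

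Levels can be set side by side between genes only per length, and the exon length used for the deposited FPKM differs from that of the main transcript. For Trem2 the merged exons span 4946 bases and the principal transcript 1088, a factor of 4.55, while for Tyrobp they span 667 and 564 and for Plcg2 both are 4298. Rescaled to the principal transcript, the receptor and its adaptor stood at nearly the same level. Tyrobp was at 10.6 ± 5.59 FPKM (SD, n = 3) and Trem2 at 10.2 ± 2.38 in H, and at 82.5 ± 39.0 and 70.7 ± 23.8 in P. The ratio of Tyrobp to Trem2 lay between 0.656 (H1) and 1.41 (C85) over all libraries, with group means of 1.12 in P, 1.23 in C and 1.11 in E and a range of 0.656 to 1.29 in H. The order of the means was the same in each group, with Tyrobp and Trem2 followed by Inpp5d, Cd33, Plcg2, Syk and Hcst. Trem2 and Inpp5d did not overlap in any group, with 8.22 to 12.8 against 2.15 to 3.61 in H and 45.8 to 93.3 against 6.62 to 11.9 in P. Tyrobp and Trem2 overlapped in every group, as did Cd33 and Plcg2, so their order was not larger than the spread between mice. Inpp5d and Cd33 overlapped in P alone, Syk and Hcst in C alone, and Plcg2 and Syk in all groups except H. The rescaling assumes that all reads of a gene come from its principal transcript, which was not tested.

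**Figure D3:**
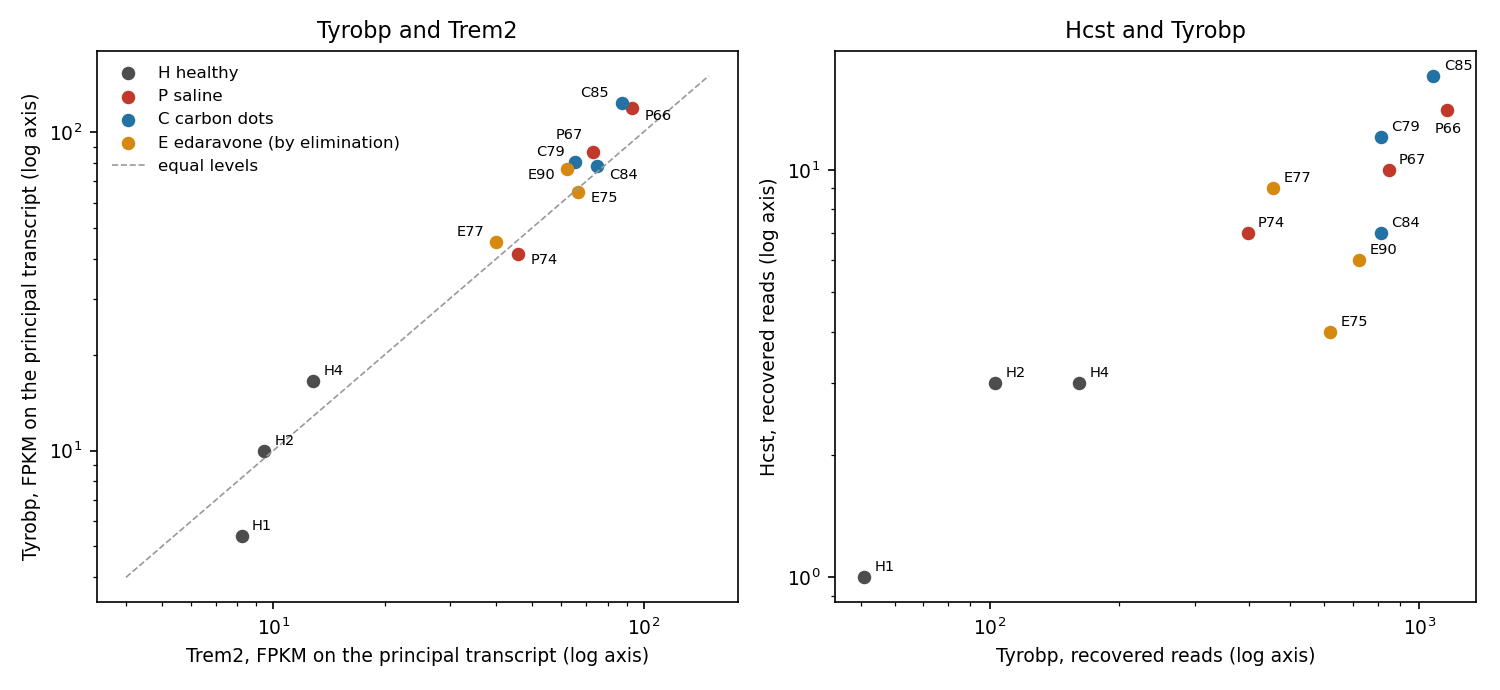
Left, Tyrobp against Trem2, both in FPKM on the principal transcript on log axes, with 1 point for each of the 12 libraries and a dashed line at equal levels. Right, recovered reads of Hcst against those of Tyrobp on log axes, where H1 has 1 read of Hcst and C85 has 17. On the left the libraries lie along the line of equal levels, from H1 at the bottom to P66 and C85 at the top.

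Trem2 and Tyrobp followed each other from mouse to mouse within the diseased animals. Over the 9 ALS model libraries, log2(FPKM + 1) of Tyrobp correlated with that of Trem2 with Pearson's r = 0.953 (exact permutation p = 0.000554, adjusted over 7 relations 0.00388) and Spearman's rho = 0.85 (exact permutation p = 0.00607, adjusted 0.0425). Without P74 and E77, the mice farthest from the median of Tyrobp, r was 0.889. The mean of the shared myeloid genes correlated with Tyrobp with r = 0.88 (adjusted exact permutation p = 0.0119; 0.641 without the same mice) and rho = 0.767 (adjusted 0.0545), and Cd33 with r = 0.831 (adjusted 0.0119; 0.678 without them) and rho = 0.75 (adjusted 0.0545). For Inpp5d r was 0.741 (adjusted exact permutation p = 0.0393) and 0.302 without them, so the relation rests on those mice, and rho was 0.65 (adjusted 0.0932). Hcst (r = 0.664, rho = 0.733), Plcg2 (0.648 and 0.567) and Syk (0.543 and 0.433) did not pass in either measure (adjusted exact permutation p = 0.0703, 0.0743 and 0.131 for r). Without the same mice r was 0.925 for Hcst, above the value for Trem2, 0.211 for Plcg2 and 0.390 for Syk. These libraries belong to 3 groups of 3, and a correlation within a group of 3 was not computed. The share of all tested genes that correlate as well with Tyrobp is not given here.

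Because the myeloid genes rose as a whole, each gene was also expressed relative to the mean log2(FPKM + 1) of the 14 shared myeloid genes, which was itself 1.95 higher in P than in H. On this scale Trem2 had -1.48, -1.40 and -1.38 in H and -1.13, -1.03 and -1.02 in P. The difference of 0.36 was thus larger than the spread in either group. Tyrobp had -0.50, 0.21 and 0.59 in H and 1.11, 1.09 and 0.68 in P, a difference of 0.86. The H mice alone were spread more widely than this difference, and H4 was close to P74. With 1 library left out the Tyrobp difference ran from 0.56 to 1.10. The other 5 genes rose by less than the myeloid mean, with relative differences of -0.64 for Cd33, -0.65 for Inpp5d, -0.92 for Plcg2, -1.10 for Syk and -1.33 for Hcst. The groups did not overlap for any of the 7, and each exact permutation p was 0.1, the smallest that 3 against 3 mice allow. The myeloid mean did not overlap between P and H either. A gene of unchanged level would thus fall by 1.95 here, so the lack of overlap does not set the 5 lower genes apart from other genes. The share of all tested genes without overlap on this scale is not given here. The size of the relative differences depended on the pseudocount, which compresses low genes most. With 0.1 in place of 1 they were 0.47 for Trem2, 0.71 for Tyrobp, -0.37 for Cd33, -0.59 for Inpp5d, -0.82 for Plcg2, -0.74 for Syk and -0.52 for Hcst. The sign depended on the reference for Inpp5d and Cd33, which were at 0.17 and 0.19 relative to the 12 microglia markers.

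**Figure D4:**
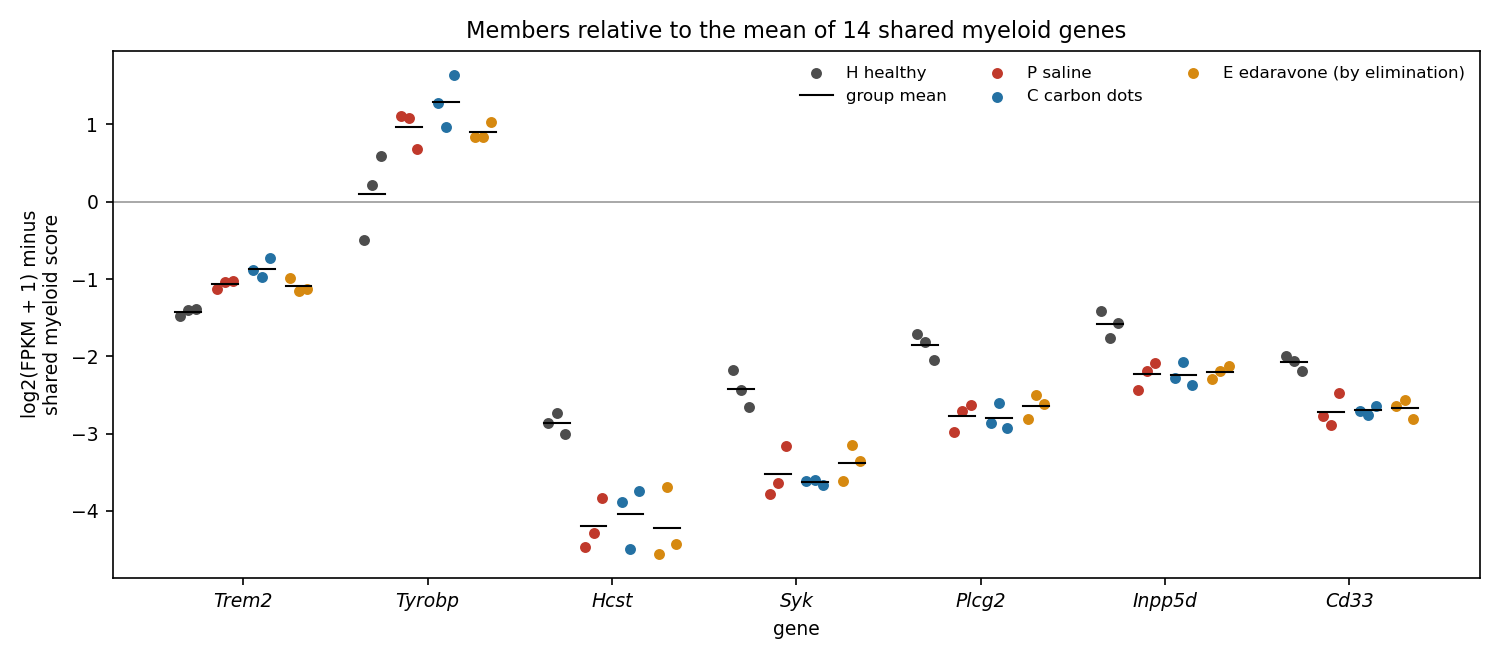
Level of each gene (horizontal axis) relative to the mean of 14 shared myeloid genes (vertical axis, log2(FPKM + 1) minus that mean), with 1 point for each mouse and a line at each group mean. Trem2 and Tyrobp sit higher in P, C and E than in H, by 0.36 and 0.86 in P, and the other 5 genes sit lower.

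Ratios of mean FPKM use no pseudocount. Among the 14 shared myeloid genes the ratio of P to H ran from 3.06 to 8.12, with a median of 5.65. Trem2 (6.97) was above 12 of the 14 and Tyrobp (7.76) above 13. Plcg2 (2.90) was below all 14, and Syk (3.17) and Inpp5d (3.29) were above 1 of them. Hcst (4.54) was above 5 and Cd33 (4.06) above 3, so that Hcst, which had the lowest relative value on the log2 scale, ranked below Trem2 and Tyrobp alone by this ratio. On principal transcripts, Trem2 was at 6.22 to 7.98 times the level of Cd33 in H and at 11.1 to 14.5 times in P. The same ratio was 13.5 to 14.7 in C and 11.1 to 12.9 in E, so none of the ALS model libraries overlapped with H. None of the 7 genes is on the list of shared myeloid genes.

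The treated groups differed little from P on the relative scale. Trem2 was at -0.88, -0.98 and -0.73 in C79, C84 and C85, above all 3 P mice by 0.196 on average, with an exact permutation p of 0.1, the smallest possible. The other 6 genes overlapped between C and P, and all 7 overlapped between E and P. The share of all tested genes without overlap in C against P on this scale is not given here, so the separation of Trem2 cannot be weighed. The myeloid mean itself differed from that of P by -0.06 in C and -0.25 in E, with exact permutation p of 0.8 and 0.4.

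In 5 lists of genes around this pathway, from 5 of 13 to 16 of 16 tested genes passed as higher in P against H, beside 12.2% of all tested genes, and none passed as lower. The first list holds other receptors of myeloid and NK cells, most of which signal through Tyrobp, Hcst or like adaptors, and a few that do not, such as Tlr2, which signals through Myd88. Of its 29 genes 16 passed the filter on low values, and 16 of these rose, with a median log2 difference of 1.43 beside 0.07 for all tested genes. The filter favours genes that rose, since 5 of the 16 did not reach 10 reads in every H library and entered through diseased mice. The other 11 also rose, and without the filter 12 of 29 did, beside 1206 of all 32961 genes. Clec7a, a receptor for fungal glucans whose tail engages Syk directly, had 0.248, 0.331 and 0.460 FPKM in H and 55.2, 31.1 and 19.2 in P. Healthy mice were thus close to 0, and the log2 difference was 4.63 ± 0.31 (limma, adjusted p = 4.83e-05). The integrin chain Itgb2 (2.61 ± 0.25), the Fc receptor Fcgr3 (2.29 ± 0.24) and the lipopeptide receptor Tlr2 (2.11 ± 0.21) followed.

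Of the Trem2 ligands, sheddases and modifiers, 11 of 17 tested genes rose (median 0.58), but 7 without H2, 6 without P66 and 7 without the filter. Over all tested genes the calls as higher also fell, from 2216 to 969 without H2 and 804 without P66. Without the filter they numbered 1206 of 32961 genes. The galectin Lgals3 went from 0.941 ± 0.269 FPKM (SD, n = 3) in H to 25.8 ± 12.4 in P. Cd68, a lysosomal membrane protein that is on the list but is not itself a Trem2 ligand, sheddase or modifier, went from 4.03 ± 0.859 to 65.3 ± 31.2. The lipoprotein Clu, already abundant at 204.3 ± 15.3 in H, reached 545.8 ± 128.6, and Ms4a6d, of a membrane protein family whose human locus is linked to levels of soluble TREM2, rose from 0.624 ± 0.187 to 5.58 ± 2.83. In limma the adjusted p of these 4 genes lay between 0.00019 and 0.0021.

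Of the Src and Tec family kinases and Syk relatives, 5 of 13 tested genes rose, with a median of 0.29. Among them were Lyn (1.63 ± 0.21), Tec (1.34 ± 0.20) and Fgr (1.06 ± 0.18), and Fgr went from 0.198 to 0.314 FPKM in H to 0.898 to 2.15 in P. Of the adaptors and effectors downstream of Syk and Plcg2, 18 of 34 rose (median 0.37), or 11 without P66 and 11 without the filter. In both settings fewer of all genes passed as higher too. Among the adaptors and effectors that rose were the adaptor Lat2 (1.38 ± 0.17), the integrin activator Fermt3 (1.38 ± 0.19) and the Rac exchange factors Vav1 (1.32 ± 0.17) and Dock2 (1.32 ± 0.17).

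Of the brakes of the pathway, a list of phosphatases and inhibitory receptors, 15 of 30 tested genes rose (median 0.52). Of these 30, 11 did not reach 10 reads in every H library, and among the other 19 the number that rose was 7. Ptpn6 (SHP-1), a phosphatase that inhibitory receptors recruit, had 1.36, 0.954 and 1.75 FPKM in H and 11.1, 8.54 and 5.46 in P. Siglecf, a mouse inhibitory receptor for sialic acids like Cd33, went from 0.206 ± 0.109 FPKM to 2.62 ± 0.986, the collagen receptor Lair1 from 2.25 ± 0.156 to 6.32 ± 1.58 and the receptor phosphatase Ptprc (CD45), which is also one of the shared myeloid genes, from 0.371 ± 0.0771 to 3.02 ± 1.21. Under median-ratio scaling the counts were 16 of 16 receptors, 9 of 17 ligands and modifiers, 5 of 13 kinases, 14 of 34 adaptors and effectors and 14 of 30 brakes, with none passing as lower.

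In C against P and E against P none of the tested members of these 5 lists passed. Against H, where 7.25% of all tested genes passed as higher in C and 11% in E, the numbers that rose in C and in E were 13 and 15 of 16 receptors, 7 and 11 of 17 ligands and modifiers, 5 and 5 of 13 kinases, 13 and 13 of 34 adaptors and effectors, and 14 and 17 of 30 brakes. Here too the filter favours genes that rose. Among genes that reached 10 reads in every H library, 7 and 8 of 19 brakes rose in C and in E. The same numbers were 11 and 10 of 11 receptors, and 6 and 9 of 14 ligands and modifiers. The kinases called numbered 2 or 3 in C without H1, H2, C79, C84, C85 or the filter. They numbered 2 or 3 in E without H1, H2, E75, E90 or the filter. The brakes called in C numbered 8 without H2, C84, C85 or the filter. Over all 18119 tested genes the calls as higher also fell without 1 of these libraries, in C from 1313 to between 529 and 971. In E they fell from 2002 to between 967 and 1591. Without the filter they numbered 676 in C and 1247 in E, of 32961 genes. Without H4, 1 adaptor or effector passed as lower in each of the 3 comparisons with H. Under median-ratio scaling 1 adaptor or effector passed as lower in C against H and 1 ligand or modifier in E against H. Clec7a, for instance, had 20.1 to 30.5 FPKM in the C mice and 16.8 to 29.3 in the E mice, both of which overlapped with P.

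**Figure D5:**
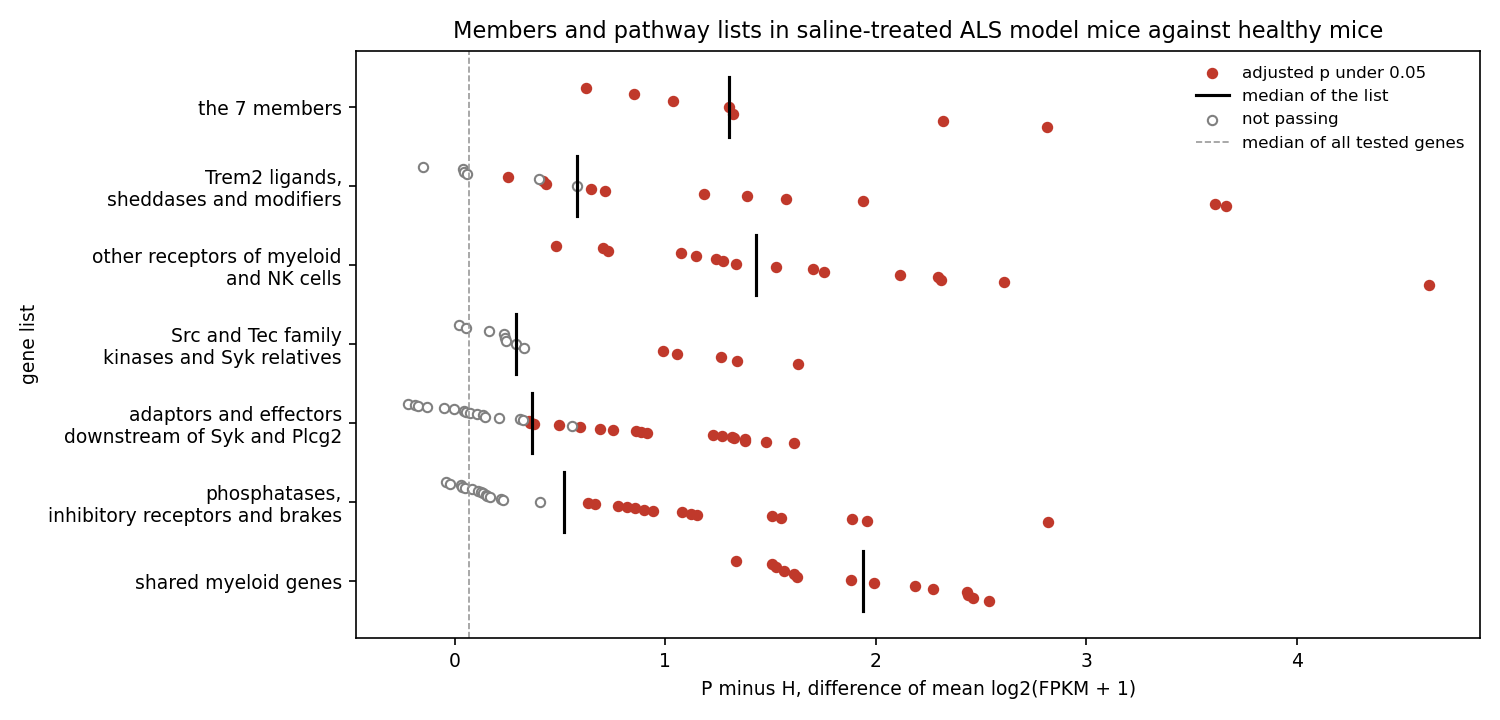
Difference of mean log2(FPKM + 1) between P and H (horizontal axis) for the 7 genes, 5 lists of pathway genes and the shared myeloid genes (vertical axis), with 1 point for each tested gene, a bar at the median of a list and a dashed line at the median of all tested genes. The 16 tested receptors, which the filter favours when they rise, pass the test, while the other pathway lists hold open points near the dashed line beside their called genes.

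The genes with the most similar profile were found by the root mean square difference of log2(FPKM + 1) over the 12 libraries, each profile centred on its own mean. For Trem2 they were the complement genes C1qb and C1qa (0.14 and 0.14) and the protease gene Ctsz (0.14), where Trem2 itself varied by 1.03 around its mean. For Tyrobp they were Cd52 (0.20), Fcer1g (0.31) and C1qa (0.31), with its own variation at 1.32. Trem2 and Tyrobp were 0.35 apart, so each was closer to the genes just named for it than to the other. The other 5 genes varied less, by 0.34 to 0.58, and their nearest profiles were those of Tmed3, Jund and Mrps6 for Hcst (0.16 each), Abhd4, Rai14 and Mki67 for Syk (0.05 to 0.07), Myof, Slco2b1 and Gpr65 for Plcg2 (0.07 to 0.08), Ncf1, Cebpa and Irf5 for Inpp5d (0.08 to 0.10) and Hcar2, Lat2 and Clu for Cd33 (0.09 to 0.11). This scale compresses low genes, so a low gene can have a neighbour at a much higher level and with a smaller fold, such as Abhd4, at 34.7 FPKM in H and 65.8 in P, beside Syk, at 0.605 and 1.92.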

How the data were processed

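The authors deposited 4 tables, 1 per group, of values read here as FPKM, that is, the reads of a gene divided by its exon length and by a total per library. This reading rests on the numbers, since no unit is named. After multiplication by the merged exon length (GENCODE M21), 95.2 to 95.6% of values of at most 50 steps fell within 0.02 of a whole number of steps, and the reads so recovered summed to 106.6 to 108.0% of the scaling total. It is not known if single reads or fragments were counted. Per the labels' protocols, RNA was taken with TRIzol, captured on oligo(dT) beads and copied from random primers into strand-marked libraries. The build GRCm38 and the tools HISAT2, cutadapt and featureCounts are named per the submitters' processing notes, with versions, roles and strand setting unstated.

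Group means were compared with limma 3.58.1 (R 4.3.3) on log2(FPKM + 1), with all 12 libraries in 1 fit, trended robust moderation and two-sided p-values adjusted by Benjamini and Hochberg over 18119 genes, at a threshold of 0.05. The filter asked for 10 reads, scaled to the median library, in 3 or more libraries and 15 reads in all, and set aside 15787 genes. Fold changes of low genes are understated on this scale. Each library is 1 mouse, so p-values measure the spread between mice. Exact permutation tests were used for relative levels and correlations. Alternatives were a pseudocount of 0.1, no filter, an FPKM filter of 0.5, median-ratio scaling, fits of 2 groups, limma-voom on the recovered reads, leaving out each library and, chosen after seeing the data, removal of the trend with exon length.

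The members and all lists were chosen with earlier results of these data known. From each pathway list the text names the 4 genes of smallest adjusted p that passed in P against H with no overlap of the groups, except 1 gene of the kinase list that is not reported here. Genes named in the closing section were chosen after their values were seen.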

Additional observations from a re-analysis of the deposited data

How the results depend on the processing

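The counts of members that passed were 6 or 7 in P against H and in C against H over the alternatives that kept all libraries, 6 in E against H and 0 among the ALS model groups. With 1 library left out they were 6 to 7, 5 to 7 (5 without H2, which lost Hcst and Syk) and 6. Of the 7 genes, only Hcst and Syk lost a call, as given above, and the cause was not tested. Counts over all genes moved more. Without the filter they were 1444 in P against H, 736 in C against H, 1469 in E against H, 5 in C against P, 3 in E against P and 4 in C against E, where 32961 genes share the adjustment. With only the compared groups in the fit they were 1471 in P against H and 4 in C against E. With a pseudocount of 0.1 they were 0 in C against P and 17 in C against E, with the FPKM filter 4 in C against P and 1 in E against P, with median-ratio scaling 2 in C against P, with limma-voom 0 in C against P, and with the length trend removed 1 in E against P. With 1 library left out the ranges were 933 (without P66) to 3535 (without P74) in P against H, 567 to 1915 in C against H, 1159 to 2230 in E against H, 0 to 2 in C against P and in E against P, and 0 to 56 in C against E.

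Signs turned only for differences that had not passed. With the length trend removed Hcst was at -0.041 and Cd33 at 0.010 in C minus P, and Syk at 0.019 in C minus E. Leaving out 1 library, C minus P ranged from -0.13 to 0.35 for Trem2, -0.15 to 0.60 for Tyrobp, -0.084 to 0.28 for Hcst, -0.30 to 0.060 for Plcg2, -0.27 to 0.088 for Inpp5d and -0.21 to 0.18 for Cd33. E minus P ranged from -0.73 to 0.016 for Tyrobp, -0.21 to 0.019 for Syk, -0.34 to 0.020 for Plcg2 and -0.38 to 0.0061 for Cd33. C minus E ranged from -0.12 to 0.053 for Syk, -0.11 to 0.16 for Plcg2 and -0.015 to 0.30 for Inpp5d. No paired analysis was possible because the groups share no mouse number. With 3 mice a group and P66 and P74 far apart, changes within the intervals given for C and E against P are not excluded. These intervals are not limits of detection, and larger changes could also have missed the adjusted threshold. Hcst rests on 1 to 17 reads per library, which limits every statement on it.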

Other observations

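Some listed genes around Trem2 that the naming rule did not reach were looked at after their values were seen. Apoe, the lipoprotein that Trem2 binds, was among the most abundant of them, with 600.1 ± 51.6 FPKM (SD, n = 3) in H and 1854 ± 588 in P (1.58 ± 0.24 on the log2 scale, limma, adjusted p = 0.00225). Both sheddases that cut Trem2 from the cell surface rose by less, Adam17 from 4.38 ± 0.316 to 7.52 ± 1.58 FPKM (0.65, adjusted p = 0.00821) and Adam10 from 19.9 ± 2.42 to 27.3 ± 3.01 (0.43, adjusted p = 0.0171). Gas6, a bridging ligand for dying cells, was at 57.4 ± 9.004 in H and 58.6 ± 5.10 in P (0.04, 95% interval -0.25 to 0.33), and Il34, a ligand of the receptor Csf1r, at 7.05 ± 1.77 and 7.20 ± 0.86 (0.04, -0.28 to 0.37). In E, Il34 was at 10.7 ± 1.37 and passed as higher than H (0.56, limma, adjusted p = 0.0275).

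The inhibitory receptor Lilrb4a had 0.0521 ± 0.0358 FPKM in H and 3.16 ± 1.79 in P (1.88 ± 0.27, limma, adjusted p = 0.00162). It was close to 0 in H, since 1 read in 1 kb of exon gave 0.0542 to 0.0643 FPKM over the 12 libraries. The filter favours such a gene when it rises, so a difference from H may be part of what let Lilrb4a into the test. The kinase Csk, which holds Src family kinases inactive, was at 15.2 ± 3.05 in H and 15.2 ± 0.292 in P (0.02, 95% interval -0.29 to 0.32). Csf1r, which signals through Tyrobp in some settings, was at 17.7 ± 0.642 in H and 54.0 ± 14.2 in P (1.53 ± 0.19, adjusted p = 0.000932).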
